A study of Mus musculus with 9 samples.

Results

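A set of 9 genes for G-protein-coupled receptors that sense neuropeptides, adenosine, nucleotides and metabolites was described in ILC2s (group 2 innate lymphoid cells), lymphocytes that reside in tissues and secrete type 2 cytokines. They were Nmur1, Vipr1, Vipr2, Adora2a, P2ry10, P2ry14, Gpr35, Gpr183 and Gpr65, taken by gene symbol from a deposited table of 23466 genes. All 9 members were found, and all 9 passed the filter on low counts that left 15117 genes for testing. No receptor for noradrenaline is among the 9. The members were chosen with results from these same libraries known, among them the rise of Gpr35 after injury, so their levels are a description and the p-values below give only their place in the fit over all genes.

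The cells were sorted from wild-type C57/Bl6 mice, 10 weeks old, as live, lineage-negative cells with CD45, ST2 (the IL-33 receptor) and Thy1 on their surface. Group 1 was brain meninges of uninjured mice. Group 2 was brain meninges taken 24 h after an 80 kdyn contusion of the spinal cord, and group 3 was lung of uninjured mice, with 3 libraries in each group. The study's design text states that 5 mice were pooled per group and does not tie libraries to pools. The p-values therefore measure the spread between these libraries alone, which may be technical. None of the groups is labelled as sham-operated, so the contusion and the surgery around it cannot be told apart.

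These receptors let lymphocytes read signals of nerves, dying cells and tissue metabolism. Nmur1 binds neuromedin U, a peptide of sensory and enteric neurons that activates ILC2s, and Vipr1 and Vipr2 bind vasoactive intestinal peptide, another neuropeptide that acts on ILC2s. Adora2a binds adenosine and raises cyclic AMP, P2ry14 binds UDP-glucose, and P2ry10 is a receptor assigned to lysophosphatidylserine. Gpr183 follows oxysterol gradients and helps to place lymphocytes within tissue, Gpr65 senses protons, and Gpr35 is an orphan-type receptor for which kynurenic acid and other metabolites have been proposed as ligands.

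Library totals ranged from 13407277 to 18253462 counts, and between 13465 and 18452 genes had at least 1 count. Levels are given in CPM, counts per 1000000 counts of the library after TMM scaling. A library with 0 counts of a gene still allows up to 3 counts, or 0.163 to 0.239 CPM by library. This limit and the intervals below cover counting error only, since reads from amplified cDNA may copy the same molecule. Injured library 2 had the fewest detected genes and the lowest median Spearman correlation with its own group, 0.797 against 0.825 to 0.873 for the other libraries. The gate gene Il1rl1, which encodes ST2, stood between 1850 and 2690 CPM in every library, and the summed level of 10 gate and identity genes ran from 8010 to 8510 CPM in uninjured meninges, 8500 to 11300 in injured meninges and 7680 to 9770 in lung. Bulk libraries cannot tell fewer cells that carry a transcript apart from less of it in each cell.

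After spinal cord injury 1 of the 9 receptor genes, Gpr35, rose in meningeal ILC2s, against 0.192% of all genes tested that changed and 0.132% that rose. It went from a mean of 0.13 CPM to 33.5 CPM, while the receptors that uninjured meningeal cells carried most of, Gpr65 and P2ry10, had injured means 1.44 and 1.36 times their uninjured ones and did not pass the test. Between uninjured meninges and lung, and between injured meninges and lung, edgeR called 0 members, against 0.635% and 1.05% of all genes. By direction, 0.0595% of all genes fell after injury, 0.0397% were higher and 0.595% lower in uninjured meninges than in lung, and 0.179% were higher and 0.873% lower in injured meninges than in lung. At an unadjusted p under 0.05 there were 3 members after injury (8.94% of all genes), 4 for uninjured meninges against lung (7.98%) and 2 for injured meninges against lung (13.3%). DESeq2 called 1, 1 and 2 members, against 1.67%, 2.77% and 5.3% of all genes.

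**Figure D1:**
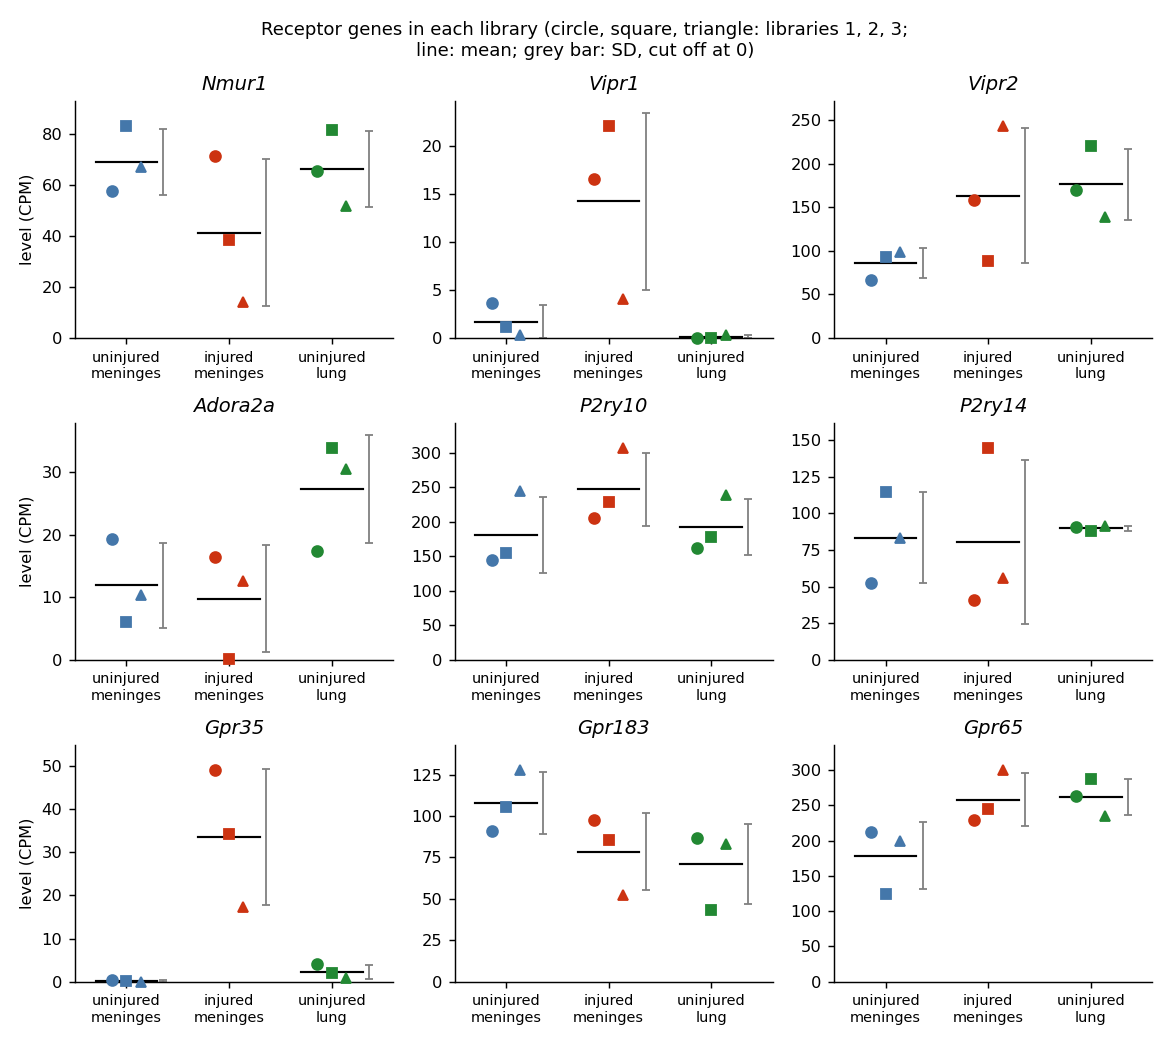
Level of each receptor gene in CPM (vertical axes, linear from 0) in the 9 libraries, grouped as uninjured meninges, injured meninges and uninjured lung, with the group mean as a line and the SD as a grey bar. The 3 injured libraries for Gpr35 sit between 17.4 and 49.0 CPM, above every other library, while all 3 groups overlap for Nmur1, P2ry10 and P2ry14.

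Compared per kilobase of exon, which allows levels to be set side by side between genes, the members differed widely in uninjured meninges. Gpr65 was the most abundant, at a mean level of 86.4 CPM per kilobase, above 99.1% of the tested protein-coding genes. P2ry10 followed at 60.8, Nmur1 at 40.9, Gpr183 at 37.4 and Vipr2 at 19.3 CPM per kilobase. P2ry14 had 7.54 and Adora2a 3.88 CPM per kilobase, at percentiles 67.6 and 49.3 of the tested protein-coding genes. Vipr1, at 0.285, and Gpr35, at 0.0269 CPM per kilobase, were the lowest members, at percentiles 10.4 and 1.9. In injured meninges the mean level of Gpr35 was 6.92 CPM per kilobase, at percentile 63.7, close to that of P2ry14 in the same libraries, 7.26. Gpr65 and P2ry10 kept the first and second place in all 3 groups, with 125 and 82.9 CPM per kilobase in injured meninges and 127 and 64.6 in lung.

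**Figure D2:**
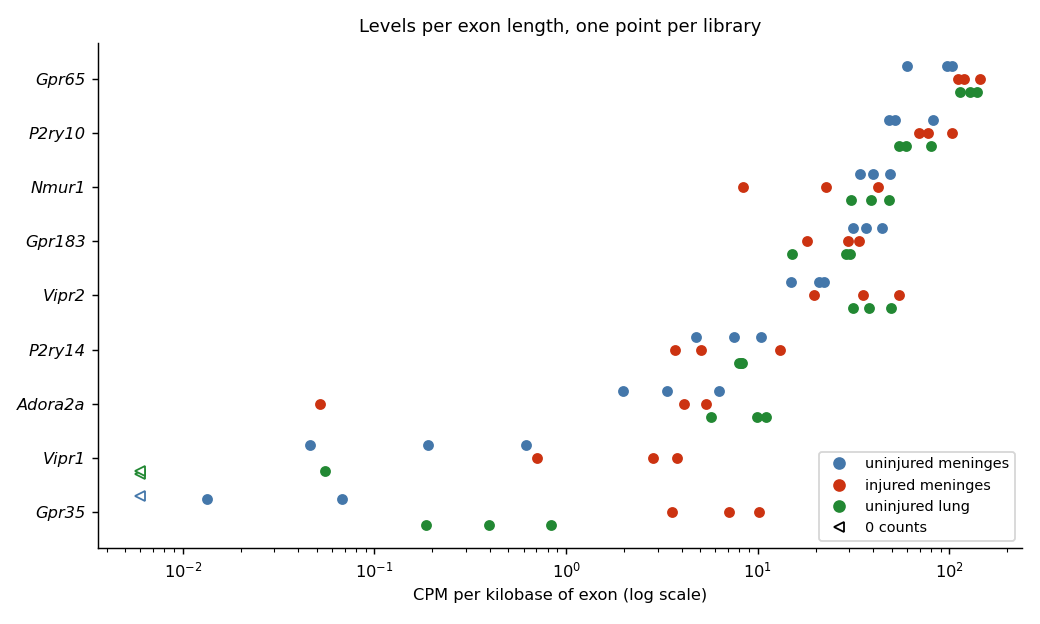
Level of each receptor gene per kilobase of exon (horizontal axis, CPM per kilobase, log scale), with 1 point per library coloured by group and libraries with 0 counts drawn as open triangles at the left edge. Gpr65 lies furthest right in all groups, and Gpr35 and Vipr1 are the members whose groups lie furthest apart.

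Among the metabolite receptors, Gpr35 had 6, 1 and 0 counts in the 3 uninjured meningeal libraries, or 0.33, 0.065 and 0 CPM. After injury it had 820, 429 and 277 counts, or 49.0, 34.1 and 17.4 CPM. In lung it had 66, 26 and 14 counts, or 4.06, 1.92 and 0.90 CPM. All 3 injured libraries thus lay above all lung libraries, and all lung libraries above all uninjured meningeal ones. The rise after injury was 7.87 ± 1.31 on the log2 scale (SE, n = 3 each, edgeR adjusted p = 0.0203). The summed counts were 1526 against 7, a ratio of 235 after scaling for library size, with an exact 95% counting interval of 114 to 585. The call was lost without uninjured library 2 (edgeR adjusted p = 0.103) and without injured library 1 (0.0774), and it was kept in the fit without injured library 2 (0.0254), the library that stood apart. Uninjured meninges against lung gave -4.00 ± 1.13 (edgeR adjusted p = 0.177) and injured meninges against lung 3.87 ± 1.06 (0.111). Neither of these neighbouring steps in the order of levels passed edgeR's test, although the groups did not overlap in either, and DESeq2 called both (adjusted p = 0.00512 and 0.000756). Without uninjured library 1, the one with 6 counts, the difference was 9.68 after injury and -5.81 for uninjured meninges against lung. Without lung library 1 the differences from lung were -3.30 for uninjured and 4.57 for injured meninges.

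Because Gpr35 was the member that changed, the 250 bases before each of its RefSeq start positions (GRCm38.p6, plus strand) are shown, with those before the start of Vipr1, the member with the next largest fitted difference after injury. The first Gpr35 window lies at chr1:92972869-92973118, the second at chr1:92978653-92978902 and the Vipr1 window at chr9:121642466-121642715. Capitals mark matches to motifs on either strand.
Gpr35 first start: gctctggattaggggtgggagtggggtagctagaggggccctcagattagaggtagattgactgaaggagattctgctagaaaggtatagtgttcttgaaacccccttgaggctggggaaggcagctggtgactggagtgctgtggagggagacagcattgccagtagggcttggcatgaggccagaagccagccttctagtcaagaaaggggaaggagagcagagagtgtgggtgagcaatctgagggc
Gpr35 second start: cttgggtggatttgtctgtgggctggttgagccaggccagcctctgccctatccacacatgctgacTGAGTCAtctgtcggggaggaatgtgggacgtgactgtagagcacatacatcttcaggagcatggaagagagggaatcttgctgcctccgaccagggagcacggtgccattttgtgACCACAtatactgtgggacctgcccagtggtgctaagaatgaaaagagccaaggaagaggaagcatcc
Vipr1 start: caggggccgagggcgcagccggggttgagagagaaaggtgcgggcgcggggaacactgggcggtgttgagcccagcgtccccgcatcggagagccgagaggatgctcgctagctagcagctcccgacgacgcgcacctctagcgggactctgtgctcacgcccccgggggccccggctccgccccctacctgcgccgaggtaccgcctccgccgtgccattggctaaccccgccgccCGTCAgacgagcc

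The motifs searched were those of AP-1, spelled TGANTCA and identical on both strands, and of GATA factors, spelled AGATAA. The search also covered the RUNX motif, whose letters are TGTGGT, and the core of the cyclic AMP response element, whose letters are TGACG. The E-box, spelled CACGTG, and the NF-kB consensus completed the set, with no overlap between matches in the windows shown. In the second Gpr35 window, TGAGTCA begins 184 bases before the start, and a RUNX match on the other strand begins 68 bases before it. The first Gpr35 window held no match to any of the 6. AP-1 matches also stood before starts of members that were not called, P2ry14 (202 and 144 bases before) and P2ry10 (99 bases before). Another P2ry10 window held RUNX matches 204 and 55 bases before its start. AP-1 matches were present in 6.75%, RUNX in 14%, GATA in 9.99%, E-box in 6.02% and NF-kB matches in 3.9% of all 32851 windows of this length. The Vipr1 window held 30 CG dinucleotides and 1 match to the TGACG core, which 17.8% of windows hold, while the Gpr35 windows held 0 and 4 CG dinucleotides against a median of 6 over all windows. These matches describe letters only. Windows were at hand for 8 of the 9 members.

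Gpr183, the oxysterol receptor, had 90.9, 105 and 128 CPM in uninjured meninges and 97.7, 85.5 and 52.4 CPM in injured meninges. Its lung libraries held 86.9, 43.5 and 83.4 CPM. The uninjured meningeal libraries were all above the lung libraries, with 90.9 and 86.9 CPM at the closest pair, and the injured libraries overlapped with both. The log2 fold change was -0.46 ± 0.35 after injury (edgeR adjusted p = 0.765) and 0.60 ± 0.35 for uninjured meninges against lung (0.78). Gpr65, the proton sensor, had 212, 124 and 200 CPM in uninjured meninges, 229, 245 and 300 CPM in injured meninges and 263, 287 and 235 CPM in lung. The uninjured meningeal libraries were the 3 lowest of the 9, and the injured and lung libraries were interleaved. The injury difference was 0.53 ± 0.24 (edgeR adjusted p = 0.548) and the difference of uninjured meninges from lung -0.55 ± 0.24 (0.559), so neither passed. Gpr65 shares exon sequence with the antisense gene Gm47566 in GENCODE M21. The strand setting of the counting is not stated, and without it reads of this pair cannot be told apart. Gpr183 overlaps Ubac2 on the opposite strand with no shared exon, and Ubac2 had means of 11.7, 13.9 and 10.2 CPM in the 3 groups.

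Among the neuropeptide receptors, Nmur1 was carried in all groups. It had 57.6, 83.2 and 67.2 CPM in uninjured meninges and 65.7, 81.8 and 52.0 CPM in lung. In the injured libraries it had 71.6, 38.4 and 14.2 CPM, so that 1 injured library lay within the uninjured range and the other two below it. The fitted difference after injury was -0.74 ± 0.48 on the log2 scale (edgeR adjusted p = 0.694). It was -1.39 without injured library 1 and -0.33 without injured library 3. Uninjured meninges and lung, with means of 69.35 ± 12.96 and 66.5 ± 14.9 CPM (SD, n = 3 each), differed by 0.06 ± 0.48 (edgeR adjusted p = 0.996).

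Vipr1 had 66, 17 and 4 counts in uninjured meninges and 276, 277 and 65 counts in injured meninges, or 3.59, 1.10 and 0.27 against 16.5, 22.0 and 4.07 CPM. In lung it had 0, 0 and 5 counts. The injured libraries were above all others, with the closest pair at 4.07 and 3.59 CPM, and 1 uninjured meningeal library lay below the highest lung library. The injury difference of 3.09 ± 1.56 on the log2 scale missed the threshold (edgeR adjusted p = 0.589), and so did 3.84 ± 1.67 for uninjured meninges against lung (0.535). Injured meninges against lung gave 6.94 ± 1.89 (edgeR adjusted p = 0.109), a ratio of summed counts of 124 with an exact 95% counting interval of 52.9 to 384. Lung library 3 held all 5 lung counts. Without it the fitted differences from lung were 10.78 for injured and 7.69 for uninjured meninges, values that depend on the prior count because lung is then at 0. Without uninjured library 1 the injury difference was 4.36 and that of uninjured meninges from lung 2.57. Tissue and injury differ together in the comparison of injured meninges with lung and cannot be told apart. DESeq2 called that comparison (adjusted p = 0.000157), and so did edgeR with no filter on low counts (0.0464).

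Vipr2, the second receptor for vasoactive intestinal peptide, stood above Vipr1 per kilobase of exon in each library. Its uninjured meningeal libraries had 66.7, 93.6 and 98.5 CPM. The injured libraries had 159, 88.1 and 243 CPM, and the lung libraries 170, 220 and 139 CPM. Lung was above uninjured meninges without overlap, while injured library 2 lay within the uninjured range and the other two injured libraries at the level of lung or above. The difference was 0.92 ± 0.34 after injury (edgeR adjusted p = 0.477) and -1.03 ± 0.34 for uninjured meninges against lung (0.287). In CPM per kilobase, Vipr2 stood at 36.6 against 2.45 for Vipr1 in injured meninges and at 39.6 against 0.0184 in lung. Gm20658, an antisense gene that overlaps Vipr2 with no shared exon, had means of 32.4, 18.9 and 34.4 CPM in the 3 groups.

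Among the purine and lysolipid receptors, Adora2a had 19.3, 6.07 and 10.3 CPM in uninjured meninges and 17.5, 33.8 and 30.5 CPM in lung. The injured libraries had 16.5, 0.16 and 12.7 CPM, the middle value resting on 2 counts in injured library 2, where 276 and 202 counts stood in the other two. The injured libraries lay below all lung libraries, with 16.5 and 17.5 CPM at the closest pair. The log2 fold change of injured meninges against lung was -1.48 ± 1.01 (edgeR adjusted p = 0.597). It was -2.10 without injured library 1, -2.18 with a replicate block and -0.90 without injured library 2. The injury difference was -0.28 ± 0.99 (edgeR adjusted p = 0.973) and was positive without injured library 2 (0.30) and without uninjured library 1 (0.26), while without injured library 1 it was -0.89.

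P2ry10 had 144.5, 155 and 244 CPM in uninjured meninges, 206, 229 and 307 CPM in injured meninges and 162, 177 and 239 CPM in lung. The 3 groups overlapped, and the injury difference was 0.45 ± 0.27 on the log2 scale (edgeR adjusted p = 0.673). P2ry10b, a paralog whose reads can be confused with those of P2ry10, stood between 0.080 and 11.5 CPM over the 9 libraries. P2ry14 had 52.4, 114.5 and 83.4 CPM in uninjured meninges and 40.7, 144 and 55.8 CPM in injured meninges. Its lung libraries stood close together at 90.3, 87.9 and 91.2 CPM, a SD of 1.70 against 31.1 and 56.1 in the meningeal groups. The differences were -0.05 ± 0.43 after injury (edgeR adjusted p = 0.993) and -0.11 ± 0.43 for uninjured meninges against lung (0.995). The injury difference was -0.79 without injured library 2, which held 144 CPM, and positive without injured library 1 (0.28) or 3 (0.15) or uninjured library 2 (0.24). P2ry14 overlaps Med12l on the opposite strand with no shared exon, and Med12l had means of 131.5, 114 and 169 CPM in the 3 groups.

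**Figure D3:**
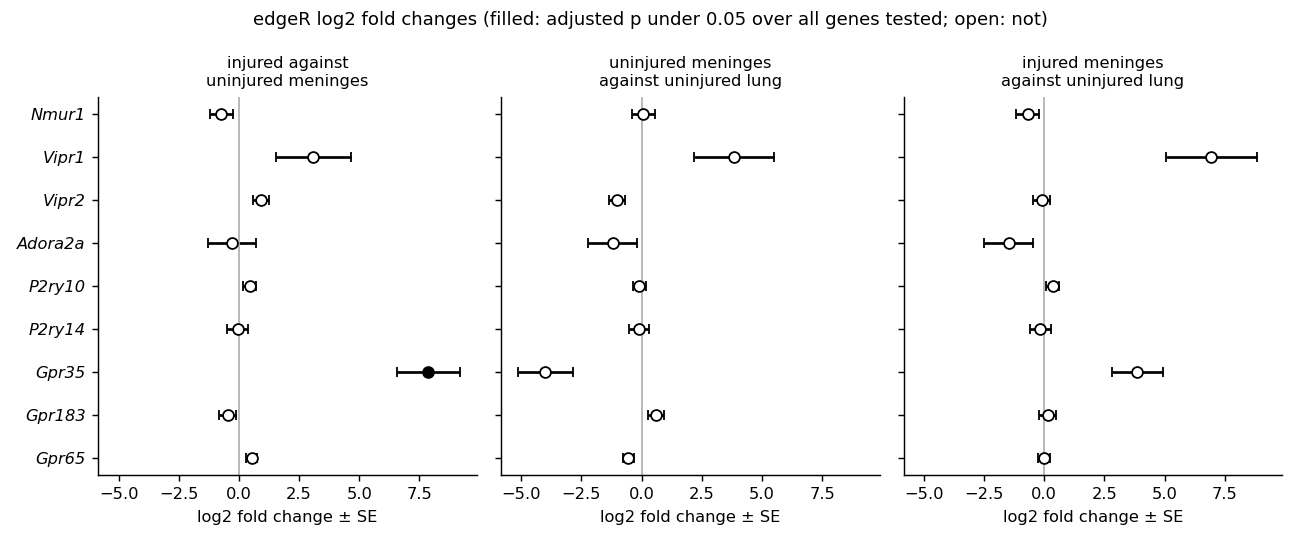
edgeR log2 fold change with SE (horizontal axes) of each receptor gene in the 3 comparisons, with filled points for an adjusted p under 0.05 over all genes tested. The filled point is Gpr35 after injury, at 7.87, and all other points are open.

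Counted by libraries alone, 3 members (Gpr35, Gpr65 and Vipr1) had injured and uninjured meningeal groups that did not overlap, all higher after injury, against 12.1% of all genes without overlap, 5.35% higher and 6.79% lower. For uninjured meninges against lung there were 4, with Gpr183 higher and Gpr35, Gpr65 and Vipr2 lower, against 18.2% of all genes, 7.63% higher and 10.6% lower. For injured meninges against lung there were 3, with Gpr35 and Vipr1 higher and Adora2a lower, against 17.8% of all genes, 6.38% higher and 11.4% lower. The median log2 fold change of the members was 0.45, -0.11 and -0.02 in the 3 comparisons, beside -0.01, 0.00 and -0.01 for all genes tested. The 3 comparisons share libraries, so they are no separate evidence for one another.

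The wider family was described with lists of related genes. Of 34 other neuropeptide receptors and receptor subunits, 18 were in the table and 8 were tested. Ramp3 is a subunit that pairs with Calcrl in a receptor for adrenomedullin. It stood at 3.27, 0.65 and 0.27 CPM in the uninjured meningeal libraries, 29.2, 58.7 and 15.2 CPM in the injured ones and 37.3, 74.7 and 63.2 CPM in lung. It rose after injury (log2 fold change 4.60, edgeR adjusted p = 0.0377) and was lower in uninjured meninges than in lung (-5.37, 0.00677). The injury call was lost without uninjured library 2 (edgeR adjusted p = 0.164) or 3 (0.0865), injured library 1 (0.0558) or 2 (0.0642), or lung library 2 (0.076) or 3 (0.061), and with only the meningeal libraries in the fit (0.276). Without uninjured library 1 the log2 fold changes were 6.20 after injury and -6.97 against lung, and without injured library 2 the injury value was 3.97. Its partner Calcrl, the most abundant gene of the list, was lower in both meningeal groups than in lung (-2.56 and -2.94), and its injury difference of -0.37 did not pass. Glp1r, the receptor for glucagon-like peptide, had 0 counts in all meningeal libraries and 27.6, 4.05 and 23.3 CPM in lung. With 3 counts per library as the limit, it was at least 98.4-fold lower in uninjured and at least 90.7-fold lower in injured meninges (edgeR adjusted p = 0.036 and 0.0284). Glp1r passed the filter on low counts through lung alone, so its direction was fixed beforehand and these calls are no separate support. The call against uninjured meninges was lost when uninjured library 1, 2 or 3 or lung library 1 or 3 was left out (0.0805 to 0.213), the call against injured meninges without injured library 3 or lung library 1 or 3 (0.0795 to 0.171), and both with a replicate block (0.0662 and 0.0541). Calcrl stood at 699, 294 and 830 CPM in the lung libraries, so that both genes were lowest in lung library 2. Summed markers of endothelium (526, 185 and 404 CPM), lung epithelium (2150, 684 and 1290) and monocytes and macrophages (368, 42.2 and 503) had their lowest lung value there too. The part of these cells in the levels of Calcrl and Glp1r was not tested. The list's median log2 fold change was -0.19 after injury and -2.09 for uninjured meninges against lung. Both medians include Glp1r and Cckar, which had 0 counts in all meningeal libraries. These genes passed the filter through lung alone, so they could only be lower in meninges, and after injury they enter as 0.

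Of 29 receptors for noradrenaline, acetylcholine, dopamine, histamine and serotonin, 13 were in the table, 7 were tested and edgeR called 0 in each of the 3 comparisons. At an unadjusted p under 0.05 there were 1, 4 and 3 of the 7, beside 8.94%, 7.98% and 13.3% of all genes, and DESeq2 called 0, 1 (Adra1a) and 2 (Adra1a and Chrm2), beside 1.67%, 2.77% and 5.3%. The same shares of all genes apply to the counts of the lists that follow. Adra1a, a receptor for noradrenaline, had means of 0, 0.020 and 7.85 CPM in uninjured meninges, injured meninges and lung. It passed the filter through lung alone, as did Chrm2 and Htr2c, which had 0 counts in all meningeal libraries. The direction of these genes against lung was therefore fixed beforehand. The other adrenergic receptor genes of the list with counts, Adra2a, Adra1b and Adrb1, stood at means of 1.11 CPM or less and were too scarce to be tested. The most abundant was Hrh2, a histamine receptor, with 1.09 to 36.1 CPM in uninjured meninges, 2.93 to 9.86 in injured meninges and 0.19 to 8.98 in lung. Htr2a, a serotonin receptor with the smallest p after injury, rested on 8.42 CPM in 1 injured library and 0 and 0.19 in the other two (edgeR adjusted p = 0.493). The list's median of -6.43 for uninjured meninges against lung, or -4.43 with genes at 0 in a group set to their limit, rested on scarce genes: its middle gene, Htr2a, had a mean of 2.35 CPM in lung. Of 10 purine receptors 9 were in the table and 4 were tested. edgeR called 0 in each comparison, DESeq2 called 0, and 0, 0 and 1 stood at an unadjusted p under 0.05. P2ry1, a receptor for ADP, was the most abundant at 31.4 CPM over all libraries, and P2ry12, also a receptor for ADP, had the smallest p after injury (edgeR adjusted p = 0.817).

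Of 20 other receptors for metabolites, lysolipids, protons and cannabinoids, 10 were tested, with 0 called by edgeR or DESeq2 in each comparison and 3, 1 and 2 at an unadjusted p under 0.05. Gpr171 was the most abundant of them and stood at 194, 195 and 170 CPM in the uninjured meningeal libraries, 228, 428 and 248 CPM in the injured ones and 172, 191 and 194 CPM in lung. All injured libraries lay above all others (log2 fold change 0.69, edgeR adjusted p = 0.477). Of 17 genes for ligands of the members and for enzymes that make or remove those ligands, 9 were tested. edgeR called 0 in each comparison, DESeq2 called 0, 1 and 1 (Ada), and 0, 2 and 1 stood at an unadjusted p under 0.05. Nt5e, the ectoenzyme that forms adenosine, was the most abundant at 49.8 CPM over all libraries. Kyat3, an aminotransferase that forms kynurenic acid, had the smallest p after injury (-1.97, edgeR adjusted p = 0.64). The neuropeptide genes Nmu and Vip were not analysed here. Of 32 genes for G proteins and the cyclic AMP pathway all were tested. edgeR called 0 in each comparison, DESeq2 called 1 (Grk5), 0 and 1 (Grk5), and 4, 1 and 4 of the 32 stood at an unadjusted p under 0.05, beside 8.94%, 7.98% and 13.3% of all genes. After injury 23 of the 32 had a positive log2 fold change and 9 a negative one, with a median of 0.19, beside 49.4% positive of all genes tested. For injured meninges against lung, which shares the injured libraries, the split was again 23 and 9. For uninjured meninges against lung it was 15 and 17. The phosphodiesterase gene Pde7a was the most abundant at 503 CPM. Gng2, a G-protein subunit, had the smallest p, at 72.7 ± 25.2 against 165 ± 55.8 CPM (SD, n = 3 each, edgeR adjusted p = 0.321).

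**Figure D4:**
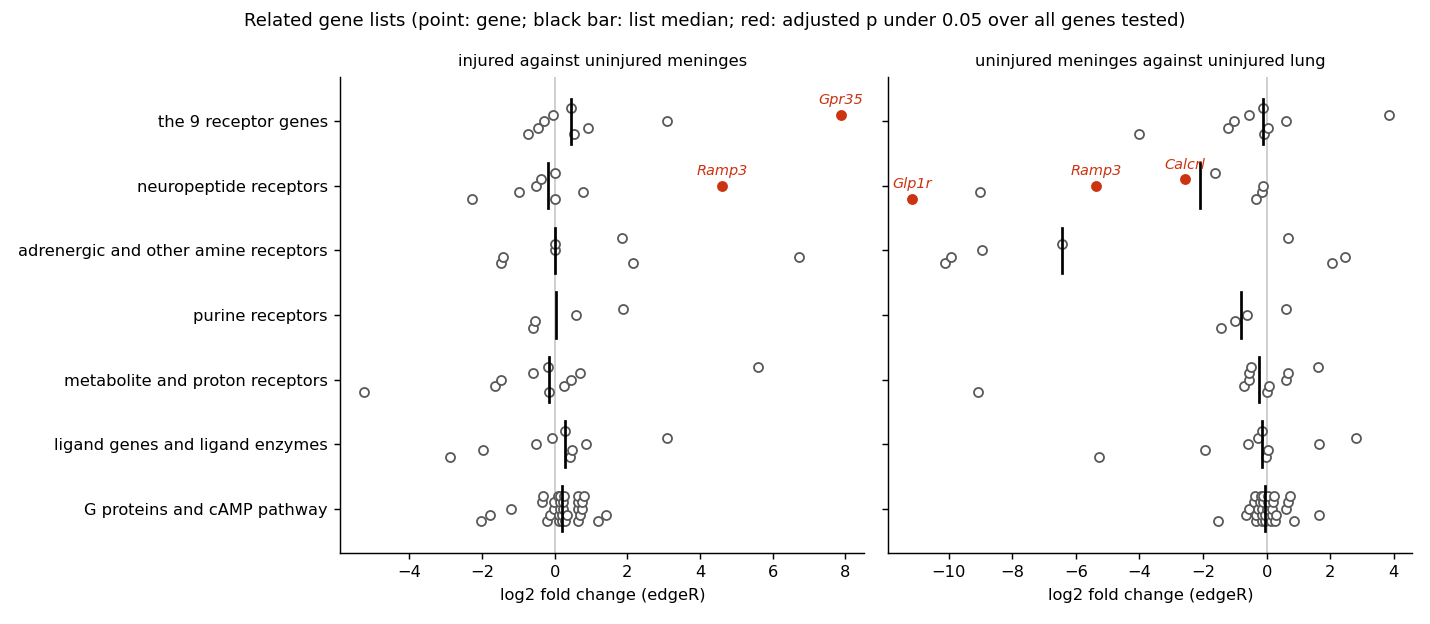
edgeR log2 fold change (horizontal axes) of the 9 receptor genes and of the tested genes of each related list, for injured against uninjured meninges and for uninjured meninges against lung, with list medians as black bars and genes at an adjusted p under 0.05 in red. Gpr35 and Ramp3 are the red points after injury, and Glp1r, Ramp3 and Calcrl those against lung.

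The genes with the pattern most like that of Gpr35 were sought among 8150 genes by Pearson correlation of log2(CPM + 1) over the 9 libraries. They were Fbxl5 (r = 0.961), Ikzf3 (0.946), Rxra (0.937), Il18r1 (0.931) and Diap2 (0.922). Ikzf3 (Aiolos, a transcription factor of lymphoid cells) had 255 to 285 CPM in uninjured meninges, 1527 to 2125 in injured meninges and 367 to 386 in lung. Il18r1, a chain of the IL-18 receptor, had 12.7 to 33.4, 65.4 to 112 and 32.7 to 49.96 CPM in the same order. For Vipr1 the 5 genes were Tspan4 (r = 0.966), Swi5 (0.961), Gmcl1 (0.951), Ddx10 (0.935) and Mobp (0.925). The libraries of a group share their tissue and treatment, so these correlations describe a pattern and carry no p.

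**Figure D5:**
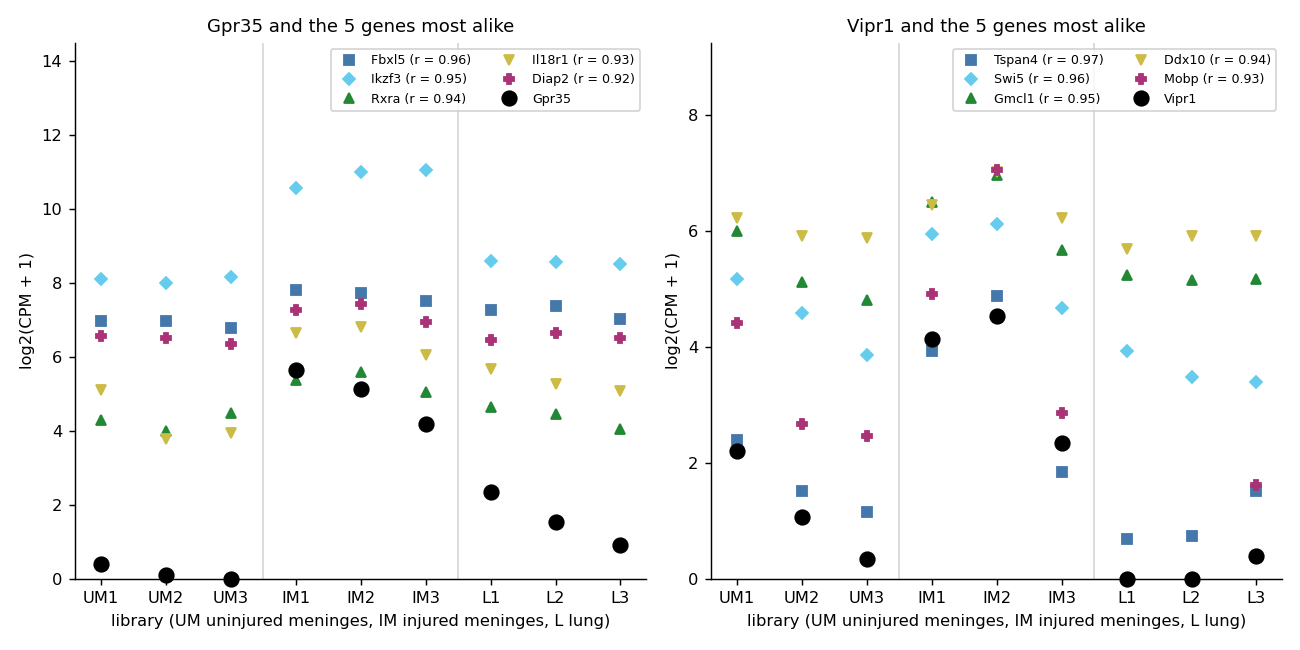
Level as log2(CPM + 1) (vertical axes) of Gpr35, Vipr1 and the 5 genes most like each, in the 3 libraries of uninjured meninges (UM), injured meninges (IM) and lung (L). Gpr35 is highest in the injured libraries and lowest in the uninjured meningeal ones, and Vipr1 is highest in injured libraries 1 and 2.

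Markers of other cells were set beside some of these values. Mobp, a gene of oligodendrocytes, was picked above for its likeness to Vipr1, so their shared pattern is no separate evidence. It had 29.0, 131 and 6.27 CPM in the injured libraries and 20.4, 5.36 and 4.50 in the uninjured meningeal ones. In lung it had 0, 0 and 2.05 CPM. Vipr1 too was highest in injured library 2 and at 0 in lung libraries 1 and 2. Mbp, the most abundant neural and glial marker, had 102, 202 and 72.4 CPM in the injured libraries. It had 174, 143 and 154 CPM in the uninjured meningeal libraries and 147, 144 and 95.7 in lung. Within lung, Mbp was lowest in the library that held the Vipr1 counts. The 10 T cell markers summed to 38.4, 106 and 3.13 CPM in the injured libraries, 60.4, 10.8 and 49.2 in the uninjured meningeal ones and 32.5, 15.6 and 59.1 in lung, of which Cd3g made up 91.9 CPM in injured library 2. None of these 10 was at 0 in a whole group. The part of other cells in the level of Vipr1 was not tested. For Gpr35, monocyte and macrophage markers (10 of 11 in the table, Fcgr1 not analysed here) summed to 120, 33.7 and 50.0 CPM in uninjured meninges, 160, 73.5 and 68.0 in injured meninges and 368, 42.2 and 503 in lung. Within the injured group these sums and the level of Gpr35 (49.0, 34.1 and 17.4 CPM) fell in the same order of libraries. Uninjured library 1 was highest in both in its group (120 and 0.33 CPM). Uninjured libraries 2 and 3 went the other way, with sums of 33.7 and 50.0 CPM beside 0.065 and 0 CPM of Gpr35. In lung the order differed, with 4.06, 1.92 and 0.90 CPM of Gpr35. The part of these cells in the level of Gpr35 was not tested.

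Markers of B cells, which carry Gpr183, summed to 29.8 to 61.3 CPM in uninjured meninges, 4.45 to 78.2 in injured meninges and 54.1 to 105 in lung. The lowest sum and the lowest Gpr183 fell together in lung library 2 (54.1 and 43.5 CPM) and injured library 3 (4.45 and 52.4 CPM). In uninjured meninges library 3 had both the highest sum, 61.3 CPM, and the highest Gpr183, 128 CPM. The lowest sum there was in library 2 (29.8 CPM) and the lowest Gpr183 in library 1 (90.9 CPM). In injured meninges the highest sum was in library 2 (78.2 CPM) and the highest Gpr183 in library 1 (97.7 CPM). In lung the highest sum was in library 3 (105 CPM) and the highest Gpr183 in library 1 (86.9 CPM). The part of B cells in the level of Gpr183 was not tested. The range was 3.29 to 59.6, 0 to 24.7 and 2.21 to 8.13 CPM for neutrophil markers in the 3 groups and 2.06 to 22.5, 0.75 to 3.18 and 6.85 to 22.5 for mast cell and basophil markers. NK cell markers ranged from 0 to 14.8, 0.19 to 13.9 and 2.14 to 8.54 CPM, and stromal markers from 3.29 to 77.3, 3.89 to 33.7 and 84.5 to 249 CPM. Neural and glial markers summed to 150 to 194, 77.7 to 202 and 99.9 to 149 CPM for 4 of the 6 listed, with Gfap at 0 in lung. Dendritic cell markers ranged from 26.7 to 43.5, 36.3 to 58.4 and 14.6 to 56.9 CPM. Lung epithelial markers summed to 684 to 2150 CPM in lung and 4.03 to 27.6 in the meningeal libraries, and endothelial markers to 185 to 526 and 43.3 to 153. The part of these cells in the tissue differences of the receptor genes was not tested.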

How the data were processed

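Per the labels' protocols, RNA was isolated (PicoPure) and its cDNA amplified (Ovation RNA-Seq System) for 9 libraries. The authors deposited raw read counts per gene, without normalization. FastQC, STAR, HTSeq and the mm9 build are named in the submitters' processing notes, and versions, roles and strand setting are not given in the sources used here. Symbols came from the table for 15969 genes and by Ensembl identifier from a reference list for 7407. Exon lengths and overlaps came from GENCODE M21, and windows before start positions from RefSeq (GRCm38.p6).

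The test was that of edgeR 4.0.16 (R 4.3.3): filterByExpr by group (15117 genes), scaling by trimmed means of M values (TMM), 1 fit of all 9 libraries, robust quasi-likelihood tests and Benjamini-Hochberg adjustment over all genes, called at 0.05. The SE was taken as the absolute log2 fold change over the root of the F statistic. The common biological coefficient of variation was 0.906. Every pair of libraries differed by more than sampling noise (lowest chi-square per gene 63.3). The procedure was tested on simulated counts. Alternatives were another scaling, DESeq2 1.42.0, no filter, 6 libraries, a replicate block and leaving out each library.

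The members and lists were chosen with earlier results of these data known. All 9 members are named. Of each related list, called genes, the most abundant gene and the one with the smallest injury p are named. For the member with the smallest p per comparison (Gpr35 or Vipr1), the 5 most similar genes above 10 CPM in a group are named.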

Additional observations from a re-analysis of the deposited data

How the results depend on the processing

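Against 29, 96 and 159 genes called by edgeR for injured against uninjured meninges, uninjured meninges against lung and injured meninges against lung, DESeq2 called 252, 419 and 801 and edgeR with no filter on low counts 78, 193 and 296. With only the 6 libraries compared in the fit the counts were 12, 226 and 172. Leaving out 1 library gave 18 to 27, 51 to 196 and 54 to 230 genes, with shifts over 1.5 times without uninjured library 2 (19) or injured library 2 (18) in the first comparison, without uninjured library 2 (53), injured library 2 (196) or lung library 3 (51) in the second, and without injured library 3 (104) or lung library 1 (90), 2 (101) or 3 (54) in the third. The split of genes higher and lower moved from 20 and 9 to 130 and 122 by DESeq2 after injury, from 6 and 90 to 68 and 351 for uninjured meninges against lung, and from 27 and 132 to 225 and 576 for injured meninges against lung. Of the 9 receptor genes, leaving out 1 library gave 0 to 1 called after injury and 0 in the other comparisons. DESeq2 called 1 for uninjured meninges against lung (Gpr35, adjusted p = 0.00512) and 2 for injured meninges against lung (Gpr35 and Vipr1), and the fit with no filter called 1 there (Vipr1). For Gpr35 after injury, 12 of 14 alternatives kept the call, with log2 fold changes of 7.34 to 9.68. The cause of these shifts was not tested.

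Libraries share only a number: over 9 same-numbered pairs, deviations from the group means correlated at -0.034 to 0.096, against -0.112 to 0.092 for other pairs. With the replicate number as a block, 43, 136 and 183 genes were called, and Gpr35 after injury kept its call (8.33, edgeR adjusted p = 0.0114). Over the 9 receptor genes the block changed no call. Genes under about 3 counts in a library cannot be told from 0, which limits Gpr35 and Vipr1 in their low groups.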
